A study of Mus musculus with 22 samples.

Results

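The 10 genes described here are the mouse hepcidins and the genes around them that set or carry body iron, taken by symbol from the 47729 gene lines of each count table: the hepcidins Hamp and Hamp2, the inducing ligand Bmp6, the feedback targets Id1 and Smad7, the sensing genes Hfe and Tfr2, the carrier transferrin (Trf), its uptake receptor Tfrc and the iron exporter ferroportin (Slc40a1). They were chosen by symbol with the levels of these libraries in view, in particular on a higher Hamp2 count in knockout livers, so Hamp2 is given between genotypes as values with no test. The libraries come from livers of male C57BL/6 mice, either wild type (WT) or Slc10a1-/- (KO), which lack NTCP, the transporter that takes bile acids into hepatocytes. There were 3 WT and 3 KO livers at 4 weeks, 4 WT and 6 KO at 8 weeks, and 3 WT and 3 KO at 20 months. No other allele, agent or diet is named in the labels. Whether livers of a group shared litters or cages, how the allele was made and whether a library held 1 animal are not given in the sources used here, so p-values measure only the spread between these samples. The study measured poly(A) RNA by sequencing, and the values are read counts, shown as CPM, which are counts scaled to library size.

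Hepcidin is a peptide that hepatocytes release into blood. It binds ferroportin, the only known cellular iron exporter, and has it degraded, so that iron stays in the gut epithelium, in macrophages and in hepatocytes. Its gene is switched on mainly by BMP6, made by the sinusoidal endothelium, acting through SMAD proteins with the help of hemojuvelin, HFE and transferrin receptor 2, and also by interleukin 6 acting through STAT3. The mouse carries a second copy of the gene, Hamp2, whose product is not known to share the iron-regulating activity of hepcidin, and whose liver RNA is known to be higher in females.

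Both hepcidin genes lie on the minus strand of chromosome 7 (GRCm38, GENCODE M21 coordinates): Hamp at chr7:30942368-30944032 and Hamp2 at chr7:30922372-30924681. Their proximal promoters are shown because the results below separate the levels of these copies. Each is given 5′ to 3′ from RefSeq on GRCm38.p6, minus strand. The Hamp2 window runs up to the base before the RefSeq transcript start. The Hamp window stops at the base before the GENCODE start of Hamp, because the last bases of its RefSeq window lie in a GENCODE exon. The Hamp2 window lies inside the GENCODE gene, which starts farther upstream. Capitals mark the BMP response element GGCGCC and a STAT motif, TTCNNNGAA, searched on both strands.
Hamp, chr7:30944033-30944279: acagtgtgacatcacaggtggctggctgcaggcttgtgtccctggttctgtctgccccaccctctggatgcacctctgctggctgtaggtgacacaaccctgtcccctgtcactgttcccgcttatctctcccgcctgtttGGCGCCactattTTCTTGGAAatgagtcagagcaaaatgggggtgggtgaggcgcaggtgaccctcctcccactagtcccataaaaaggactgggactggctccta
Hamp2, chr7:30924182-30924431: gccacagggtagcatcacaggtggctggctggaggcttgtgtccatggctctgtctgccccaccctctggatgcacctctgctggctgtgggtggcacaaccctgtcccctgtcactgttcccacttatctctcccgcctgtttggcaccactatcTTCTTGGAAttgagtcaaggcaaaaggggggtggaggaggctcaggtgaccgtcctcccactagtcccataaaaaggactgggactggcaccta
The windows were identical in 227 of 250 aligned columns (90.8%), with 20 substitutions and 3 gap columns. The Hamp window holds 247 bases and the Hamp2 window 250, and the gap columns come from this difference in length. Set flush at their 3′ ends, the windows leave the first 3 bases of the Hamp2 window without a partner. One of the substitutions, G145A, counted from 1 at the 5′ end of the Hamp window with the Hamp base first, falls inside the BMP response element, so that GGCGCC was found in the Hamp window and not in the Hamp2 window, whereas TTCTTGGAA was found in both. Of 32851 RefSeq windows of 250 bases, 9.59% held GGCGCC and 7.02% held TTCNNNGAA. Among the other members with a window, GGCGCC was found for Tfrc, and neither motif for Tfr2, Hfe or Bmp6. These are matches of letters and carry no measurement of binding.

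The coding ends are shown because they set how well short reads tell the copies apart. The last 78 coding bases of each gene follow, with the positions that differ in capitals.
Hamp: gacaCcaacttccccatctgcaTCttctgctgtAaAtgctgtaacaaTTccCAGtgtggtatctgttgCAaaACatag
Hamp2: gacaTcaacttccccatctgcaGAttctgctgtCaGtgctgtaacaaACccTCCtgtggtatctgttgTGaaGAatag
Across the 252 coding bases 16 positions differed (93.7% identical), 14 of them in this stretch, where 9 of 26 codons differed. Of the 50-base stretches of the annotated transcripts, 60 were shared, out of 361 in Hamp and 534 in Hamp2. How reads that fit both genes were counted is not given in the sources used here, so part of the counts of either gene may belong to its copy. The Hamp2 exons also share 89 bases with the opposite-strand transcript Gm44662, which had 17 counts in all 22 libraries together.

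The livers of 4 weeks were read to 5496425 to 6956124 counts each, those of 8 weeks to 18950112 to 26066897, and those of 20 months to 18032355 to 26789350, so 3 counts corresponded to 0.112 to 0.546 CPM. Slc10a1, the targeted gene, separated the genotypes without overlap at each age, with log2 fold changes of -1.93, -2.72 and -1.49 (edgeR adjusted p = 0.0117, 9.00e-05 and 0.821) from the youngest to the oldest livers. All 9 hepatocyte markers were above 0 in all 22 libraries, and 7 pancreas markers summed to at most 1.01 CPM, with Prss2 at 0 throughout. Some libraries stood apart. At 8 weeks KO replicates 3 and 4 had Mup20, a male-biased urinary protein gene, at 3381 and 3576 CPM, against 4.11 to 69.0 CPM in the other 4 KO libraries and 1023 to 2269 CPM in WT. Their Slc10a1, at 71.2 and 77.4 CPM, lay within the 49.4 to 93.8 CPM of the KO libraries. At 20 months WT replicates 1 and 2 had the acute-phase gene Saa1 at 47490 and 22340 CPM, against 213 CPM in replicate 3. At 4 weeks KO replicate 1 had a summed hepatocyte marker level of 70300 CPM, against 144300 to 191300 CPM in the other 5 libraries. The genotype comparisons, and the correlations of Id1 with Smad7, are also given without these libraries, which were picked after the data were seen. KO replicate 1 at 20 months was not among them, although 14.72% of its recorded reads lay outside genes. The other KO livers of that age had 7.707% and 7.419%, and the WT livers at most 8.525%. Among the KO livers of 20 months replicate 1 had the highest Hamp, Id1, Smad7 and Trf and the lowest Hamp2. With this library alone left out, 0 genes passed in edgeR between genotypes at 20 months, as with it. All values are per library of bulk liver, in which fewer cells of a type and less RNA per cell cannot be told apart. The livers of 4 weeks were read as paired ends and the later ones as single ends, and per the file names those of 8 weeks carry another run name than the rest, so in each age comparison age cannot be told apart from read format, run name or both.

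Hamp, the gene of hepcidin itself, rose about 11-fold in KO livers at 4 weeks and did not pass the test at 8 weeks or 20 months. At 4 weeks the WT livers had 182, 315 and 89.6 CPM, from 977, 1793 and 563 counts. The KO livers had 1497, 3049 and 1808 CPM, from 8909, 15159 and 8469 counts. Every KO library was thus at least 4 times the highest WT library, and the groups did not overlap. The log2 fold change was 3.48 (SE 0.50, a fold of 11.1), with an adjusted p of 0.00680 in edgeR's quasi-likelihood test with Benjamini-Hochberg adjustment over all genes. Hamp was the only one of the 9 tested members that passed at 4 weeks, where 10.8% of all genes tested passed (5.17% as higher and 5.6% as lower) and 35.3% had groups that did not overlap (17% higher and 18.3% lower). The call was kept when any 1 of the 6 libraries was left out, with adjusted p between 0.00188 and 0.0275 and log2 fold changes between 3.13 and 3.99.

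At 8 weeks Hamp stood at 283.5, 300.4, 429 and 426 CPM in WT livers. In KO livers it ranged from 204 to 799 CPM, with a median of 413 CPM. The KO range enclosed the WT range, with replicates 3 and 4, the libraries with high Mup20, at 383 and 204 CPM. The log2 fold change was 0.34 (SE 0.33, edgeR adjusted p = 0.673), and 0.58 (SE 0.27, edgeR adjusted p = 0.182) without replicates 3 and 4. At 20 months WT livers had 1206, 567 and 514 CPM and KO livers 1953, 1497 and 884.5 CPM. The groups overlapped through WT replicate 1, 1 of the livers with a high Saa1 level. The log2 fold change was 0.93 (SE 0.46, edgeR adjusted p = 0.821), and 1.48 (SE 0.52, edgeR adjusted p = 0.9996) when WT replicates 1 and 2 were left out. That fit holds 1 WT library, which is assumed to vary like the KO livers, and 0% of all genes passed in it.

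**Figure D1:**
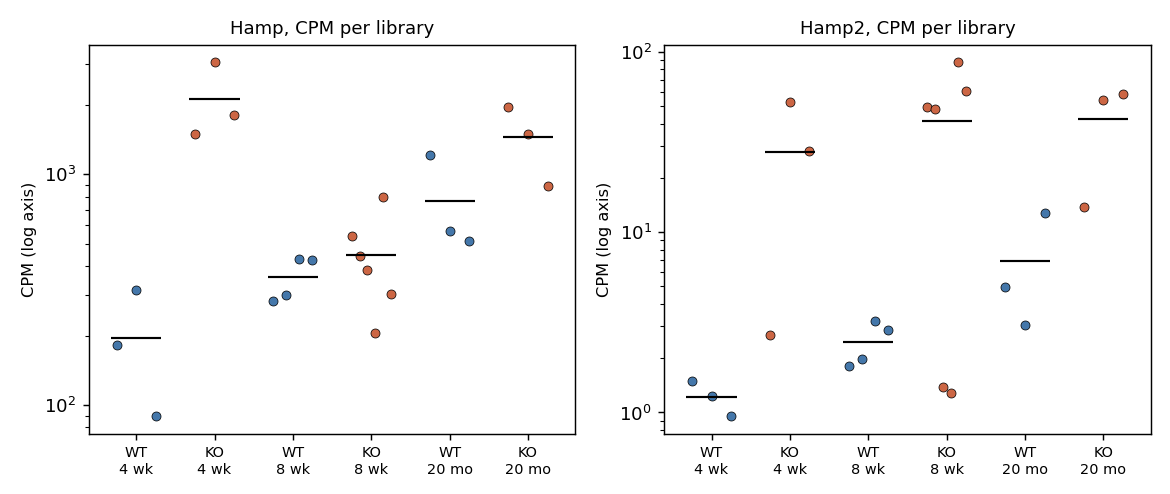
CPM of Hamp (left) and Hamp2 (right) in each of the 22 libraries on log axes, by genotype and age; points are libraries in replicate order from left to right (WT blue, KO orange) and horizontal lines are group means. Hamp separates the genotypes at 4 weeks only, while Hamp2 is high in 2 of 3, 4 of 6 and 2 of 3 KO libraries from left to right, and lowest in KO at 8 weeks in replicates 3 and 4.

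Whether the difference in Hamp itself changed with age was tested in 1 fit of the 22 libraries. The KO effect differed among the ages (joint edgeR test, adjusted p = 0.0321), in a test that 1.62% of all genes passed, and no other of the 9 tested members passed it. Relative to 4 weeks, the log2 KO effect was lower by 3.15 at 8 weeks (difference -3.15, SE 0.62, edgeR adjusted p = 0.0497) and by 2.54 at 20 months (difference -2.54, SE 0.68, edgeR adjusted p = 0.0401), tests that 0.328% and 4.52% of all genes passed. Between 8 weeks and 20 months the difference was 0.61 (SE 0.61, edgeR adjusted p = 0.735). The joint call held without the 4 libraries that stood apart at 8 weeks and 20 months (edgeR adjusted p = 0.0286, where 1.7% of genes passed). It was lost, at adjusted p from 0.050 to 0.112, when 1 of 7 libraries was left out: WT replicate 1 or 3 or KO replicate 2 at 4 weeks, WT replicate 3 or 4 at 8 weeks, or KO replicate 2 or 3 at 20 months.

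Ordered by mean, Hamp was lowest in WT at 4 weeks (195 ± 113 CPM, SD, n = 3), followed by WT at 8 weeks (360 ± 78.4 CPM, n = 4), KO at 8 weeks (445 ± 208 CPM, n = 6), WT at 20 months (763 ± 385 CPM, n = 3), KO at 20 months (1445 ± 536 CPM, n = 3) and KO at 4 weeks (2118 ± 821 CPM, n = 3). Every pair of neighbours in this order overlapped in range. The steps from WT to KO at 8 weeks, from there to WT at 20 months, and from KO at 20 months to KO at 4 weeks were smaller than the larger SD of the pair.

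Hamp2 was higher in the KO mean than in the WT mean at all ages, the pattern for which the genes were chosen, but not in every KO library. At 4 weeks WT livers had 1.49, 1.23 and 0.955 CPM, from 8, 7 and 6 counts. KO livers had 2.69, 52.7 and 28.2 CPM, from 16, 262 and 132 counts. The groups did not overlap, but KO replicate 1 lay far closer to WT than to the other KO livers. At 8 weeks WT livers had 1.82, 1.98, 3.23 and 2.85 CPM. KO replicates 1, 2, 5 and 6 had 49.4, 48.1, 87.6 and 60.6 CPM, whereas replicates 3 and 4 had 1.38 and 1.28 CPM. These replicates, the same that had high Mup20, lay below every WT liver, so the genotypes overlapped. At 20 months WT livers had 4.96, 3.05 and 12.7 CPM and KO livers 13.9, 54.1 and 58.7 CPM. The ranges did not overlap, with KO replicate 1 next to WT replicate 3. Given as a description, the log2 fold changes were 4.53, 4.11 and 2.61 at 4 weeks, 8 weeks and 20 months, and 4.69 at 8 weeks without KO replicates 3 and 4. Without WT replicates 1 and 2 the value at 20 months was 1.72, and without KO replicate 1 that at 4 weeks was 5.09.

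The genes of female- and male-biased liver expression moved with Hamp2 in part. A fixed list of 12 female-biased genes, 7 of them above 0 in all 22 libraries, summed to 86.3 to 106 CPM in WT and 1865 to 4228 CPM in KO at 4 weeks. At 8 weeks the sums were 31.7 to 49.2 CPM in WT, 1562 to 2091 CPM in KO replicates 1, 2, 5 and 6, and 20.3 and 50.4 CPM in KO replicates 3 and 4. At 20 months they were 8.15 to 63.3 CPM in WT and 29.6 to 67.4 CPM in KO. Hamp2 was thus high at 20 months in KO livers whose female-biased sum lay within or just above the WT range, and low in KO replicate 1 at 4 weeks, whose sum was 1865 CPM. The summed male-biased genes (10 in the list, 9 above 0 throughout) were 9895 to 17060 CPM in WT and 1650 to 2584 CPM in KO at 4 weeks. At 8 weeks they were 13470 to 15730 CPM in WT. KO replicates 1, 2, 5 and 6 had 553, 829, 1299 and 395 CPM, and KO replicates 3 and 4 had 20340 and 18460 CPM. At 20 months the male-biased sums were 3212 to 9426 CPM in WT and 2981 to 5971 CPM in KO. The part of these genes in the Hamp2 difference was not tested.

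Set against its copy in the same library, Hamp2 was the minor hepcidin transcript. In WT livers the CPM of Hamp2 was 0.39% to 2.47% of that of Hamp, and at 8 weeks 0.641%, 0.660%, 0.754% and 0.670%. In KO livers at 8 weeks it was 9.16%, 10.9%, 11.0% and 20.0% in replicates 1, 2, 5 and 6, and 0.361% and 0.628% in replicates 3 and 4. At 4 weeks, where Hamp also rose, the KO values were 0.180%, 1.73% and 1.56%, and at 20 months 0.711%, 3.61% and 6.64%. Per base of exon the highest share, in KO replicate 6 at 8 weeks, was 14.1%.

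Patterns most like these were sought as the Pearson correlation over the 22 libraries of log2 CPM minus the WT mean of the age, which genotype alone can make high, and which is a description. For Hamp2 the nearest genes were Ugt1a5 (r = 0.90), a glucuronosyltransferase, Cyp2b13 (0.89), a female-biased cytochrome P450, Gm38372 (0.89), 1810053B23Rik (0.88) and Sult1a1 (0.87), a sulfotransferase. Mup20 had r = -0.79 with Hamp2 and Hamp 0.53. For Hamp they were Rif1, Dmd, Mcm8 and 4833412K13Rik (each r = 0.89) and Luc7l2 (0.88), so no gene was among the nearest 5 of both copies.

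Bmp6, the ligand that endothelial cells make in step with liver iron, was low in all groups and passed no genotype test. At 4 weeks it had 4.28, 3.86 and 2.87 CPM in WT and 6.05, 2.41 and 7.90 CPM in KO, from 12 to 37 counts per library. At 8 weeks it had 5.62, 3.07, 5.22 and 4.595 CPM in WT and 3.77 to 10.7 CPM in KO, with KO replicates 1, 2 and 6 at 10.7, 7.53 and 6.39 CPM above every WT liver. At 20 months it had 2.22, 4.03 and 4.61 CPM in WT and 3.60, 3.93 and 3.91 CPM in KO. The groups overlapped at every age, with log2 fold changes of 0.61 (SE 0.43), 0.42 (SE 0.32) and 0.08 (SE 0.32) and edgeR adjusted p of 0.382, 0.596 and 0.973. The 12 markers of sinusoidal endothelium, all above 0 in all 22 libraries, summed to 470 to 583 CPM in WT and 337 to 411 CPM in KO at 4 weeks, and to 587 to 645 CPM in WT and 585 to 897 CPM in KO at 8 weeks. At 20 months they summed to 363 to 410 CPM and 372 to 393 CPM. Bmp6 shares 224 exon bases with the opposite-strand gene Txndc5, and whether counting used strand is not given in the sources used here.

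Id1, an inhibitor of DNA binding that BMP signalling through SMAD proteins switches on, had a higher mean in KO at every age without passing the test in the full groups. At 4 weeks WT livers had 2.98, 4.74 and 5.73 CPM and KO livers 9.58, 21.7 and 2.99 CPM. KO replicate 3 lay at the level of the lowest WT liver. The log2 fold change was 1.39 (SE 0.60, edgeR adjusted p = 0.168), and leaving 1 library out moved it from 0.55 without KO replicate 2 to 1.85 without KO replicate 3 (edgeR adjusted p = 0.505 and 0.0584). At 8 weeks WT livers had 1.61, 1.44, 2.79 and 2.06 CPM, KO replicates 1, 2, 5 and 6 had 17.0, 6.98, 8.67 and 3.81 CPM, and KO replicates 3 and 4 had 2.09 and 2.14 CPM. Replicates 3 and 4 thus fell within the WT range, and the other 4 lay above it. The log2 fold change was 1.80 (SE 0.61, edgeR adjusted p = 0.474) over all 6 KO livers. Without replicates 3 and 4, a choice made after seeing the data, it was 2.24 (SE 0.43) and passed (edgeR adjusted p = 0.0118), in a fit where 13.9% of all genes passed. At 20 months WT livers had 3.68, 2.32 and 2.44 CPM and KO livers 6.81, 4.47 and 5.18 CPM. These groups did not overlap, as for 10.2% of all genes tested there (5.46% higher and 4.71% lower), and the log2 fold change was 0.96 (SE 0.30, edgeR adjusted p = 0.821).

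Smad7, the SMAD that BMP signalling induces and that in turn blocks it and lowers hepcidin, showed no genotype difference that passed. At 4 weeks WT livers had 2.42, 6.85 and 6.21 CPM and KO livers 3.19, 4.22 and 1.92 CPM, from 9 to 39 counts (log2 fold change -0.68, SE 0.45, edgeR adjusted p = 0.347). At 8 weeks it had 14.5, 11.1, 18.4 and 15.8 CPM in WT and 13.2 to 24.8 CPM in KO, median 14.4 CPM (log2 fold change 0.11, SE 0.21, edgeR adjusted p = 0.836). KO replicate 5 alone set the upper end, with the other 5 at or below 14.9 CPM. At 20 months WT livers had 14.0, 7.59 and 8.94 CPM and KO livers 25.6, 11.1 and 12.7 CPM (log2 fold change 0.70, SE 0.40, edgeR adjusted p = 0.821), and the groups overlapped through WT replicate 1.

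Within groups, livers with more Id1 also had more Smad7. Each gene's log2 CPM was centred on its group mean and the libraries permuted within groups, for 6 pairs of genes fixed together. For Id1 and Smad7 Pearson's r was 0.59 (n = 22, permutation p = 0.00189, adjusted over the 6 pairs 0.0113) and Spearman's rho 0.73 (permutation p = 7e-05, adjusted 0.00042). Without the 2 libraries farthest from the median r was 0.69 (permutation p = 0.00028). Without the 5 libraries that stood apart r was 0.63 and no longer passed (n = 17, permutation p = 0.0262, adjusted 0.157), while rho was 0.80 (permutation p = 0.00477, adjusted 0.0286). That setting left 1 WT liver of 20 months, which is among the 17 but cannot be moved by permutation within groups. Within ages r was 0.78 at 4 weeks (n = 6, exact p = 0.0556, adjusted 0.333), 0.46 at 8 weeks (n = 10, exact p = 0.239, adjusted 0.358) and 0.95 at 20 months (n = 6, exact p = 0.0278, adjusted 0.167), so no age passed by itself after adjustment. The p at 20 months is the smallest that the 36 arrangements within groups can give. At that age replicate 1 of each genotype lay above its group mean in both genes, and every other liver lay below. The permutations take the livers of a group as exchangeable, and a factor shared by same-numbered livers was not tested. For Hamp with Id1 r was 0.52 (permutation p = 0.0301, adjusted 0.0903), with rho 0.53 (adjusted 0.0859), and for Hamp with Smad7 0.48 (permutation p = 0.0831, adjusted 0.166), with rho 0.50 (adjusted 0.117). Without the 2 libraries farthest from the median Hamp level these became 0.61 (adjusted permutation p = 0.0298) and 0.65 (adjusted permutation p = 0.0280). Within ages Hamp with Id1 had r = 0.21, 0.75 and 0.77, and Hamp with Smad7 0.18, 0.68 and 0.76, at 4 weeks, 8 weeks and 20 months. For Hamp with Hamp2, Bmp6 and Saa1, r was 0.40, -0.14 and 0.12 (adjusted permutation p = 0.187, 0.639 and 0.639).

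**Figure D2:**
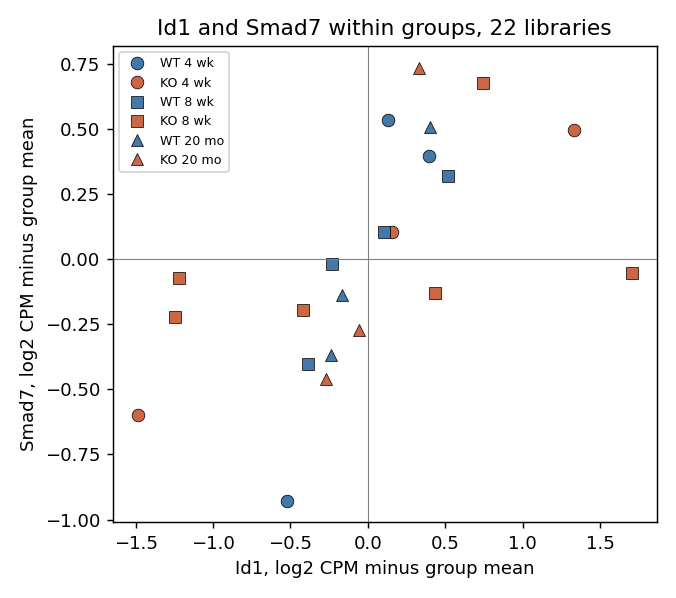
Log2 CPM of Smad7 against Id1, each minus its group mean, in the 22 libraries (WT blue, KO orange; circles 4 weeks, squares 8 weeks, triangles 20 months). Points run from lower left to upper right, with r = 0.59 over all libraries.

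Hfe and Tfr2, the membrane proteins through which hepatocytes read transferrin-bound iron, passed no genotype test. Hfe had 40.8, 40.4 and 42.0 CPM in WT and 27.6, 45.3 and 35.0 CPM in KO at 4 weeks. It had 31.9, 32.6, 30.7 and 35.9 CPM in WT and 30.2 to 44.3 CPM in KO at 8 weeks, and 36.9, 40.4 and 37.2 CPM in WT and 30.2, 33.9 and 39.9 CPM in KO at 20 months. The groups overlapped at each age, with log2 fold changes of -0.15, 0.12 and -0.14 (SE 0.22, 0.11 and 0.15, edgeR adjusted p = 0.681, 0.655 and 0.880). Tfr2 had 324.5, 423 and 493 CPM in WT and 317, 282 and 372 CPM in KO at 4 weeks. It had 350.4, 371, 357 and 451 CPM in WT and 299 to 385 CPM in KO, median 315 CPM, at 8 weeks. At 20 months it had 352, 374 and 277.5 CPM in WT and 330.0, 316 and 303 CPM in KO. The log2 fold changes were -0.32, -0.22 and -0.08 (SE 0.23, 0.11 and 0.21, edgeR adjusted p = 0.396, 0.495 and 0.951), with overlapping groups, and the last was 0.18 without WT replicates 1 and 2. Per kilobase of exon, the mean Tfr2 level in WT was 95.4, 88.2 and 77.2 CPM at the 3 ages, against 11.0, 5.27 and 4.78 CPM for its relative Tfrc.

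Trf, the plasma iron carrier that hepatocytes secrete, varied more between livers than between genotypes. Of its 3320 exon bases, 2108 are shared with the same-strand gene Gm20425, which had 0 counts in all 22 libraries together. How reads in that stretch were counted is not given in the sources used here, so Trf counts may rest on part of the gene. At 4 weeks Trf had 135, 458 and 256 CPM in WT and 82.5, 376 and 265 CPM in KO (log2 fold change -0.19, SE 0.56, edgeR adjusted p = 0.857). At 8 weeks it had 530.4, 518, 443 and 473 CPM in WT and 356 to 583 CPM in KO, with KO replicates 3 and 4 lowest (log2 fold change -0.09, SE 0.16, edgeR adjusted p = 0.827). At 20 months it had 1187, 695 and 359 CPM in WT and 785.5, 436 and 496 CPM in KO (log2 fold change -0.38, SE 0.47, edgeR adjusted p = 0.896). The WT livers with high Saa1 were those with high Trf, and without them the value at 20 months was 0.67 (SE 0.43, edgeR adjusted p = 0.9996), the opposite sign.

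Tfrc, the receptor by which cells take up transferrin, passed no genotype test. It was high in KO replicates 1 and 2 at 8 weeks and in WT replicate 1 at 20 months. At 4 weeks WT livers had 90.3, 59.5 and 54.8 CPM and KO livers 125, 58.1 and 88.8 CPM (log2 fold change 0.44, SE 0.31, edgeR adjusted p = 0.378). At 8 weeks WT livers had 30.3, 40.3, 25.3 and 34.3 CPM. KO replicates 1 and 2 had 164 and 85.5 CPM, and the other 4 had 25.5 to 31.8 CPM. The log2 fold change of 0.92 (SE 0.55, edgeR adjusted p = 0.528) thus rested on these livers, and leaving 1 library out moved it between 0.34 and 1.08. At 20 months WT livers had 52.7, 19.5 and 16.6 CPM and KO livers 13.6, 14.2 and 18.6 CPM (log2 fold change -0.94, SE 0.44, edgeR adjusted p = 0.821), and without WT replicates 1 and 2 the value was -0.11. Erythroid markers, 9 matched and 6 above 0 throughout, are given beside Tfrc because erythroid cells carry much of it. They summed to 355 to 493 CPM in WT and 161 to 213 CPM in KO at 4 weeks, and to 169 to 220 CPM in WT at 8 weeks. In KO at 8 weeks they summed to 489, 634, 154, 216, 198 and 535 CPM in replicates 1 to 6, so that replicate 6 had a high sum with Tfrc at 25.5 CPM. At 20 months they were 81.6 to 229 CPM and 68.2 to 182 CPM.

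Slc40a1, the exporter on which hepcidin acts, passed no genotype test on its RNA. At 4 weeks it had 160, 190 and 172 CPM in WT and 90.7, 195 and 192 CPM in KO (log2 fold change -0.09, SE 0.29, edgeR adjusted p = 0.868). At 8 weeks it had 189.5, 191, 188 and 234 CPM in WT and 81.4 to 275 CPM in KO, median 220 CPM (log2 fold change 0.02, SE 0.28, edgeR adjusted p = 0.980). At 20 months it had 256, 150 and 144 CPM in WT and 155, 167.5 and 207 CPM in KO (log2 fold change -0.06, SE 0.28, edgeR adjusted p = 0.979). The groups overlapped at all ages, and the lowest values were those of KO replicate 1 at 4 weeks and KO replicate 1 at 8 weeks. Kupffer cells and macrophages carry much of the ferroportin of the liver. Their 12 markers, all above 0 throughout, summed to 816 to 999 CPM in WT and 511 to 738 CPM in KO at 4 weeks, to 474 to 672.5 CPM and 457 to 1063 CPM at 8 weeks, and to 490 to 1868 CPM and 419 to 943 CPM at 20 months. The part of cell types in the levels of Bmp6, Tfrc and Slc40a1 was not tested.

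**Figure D3:**
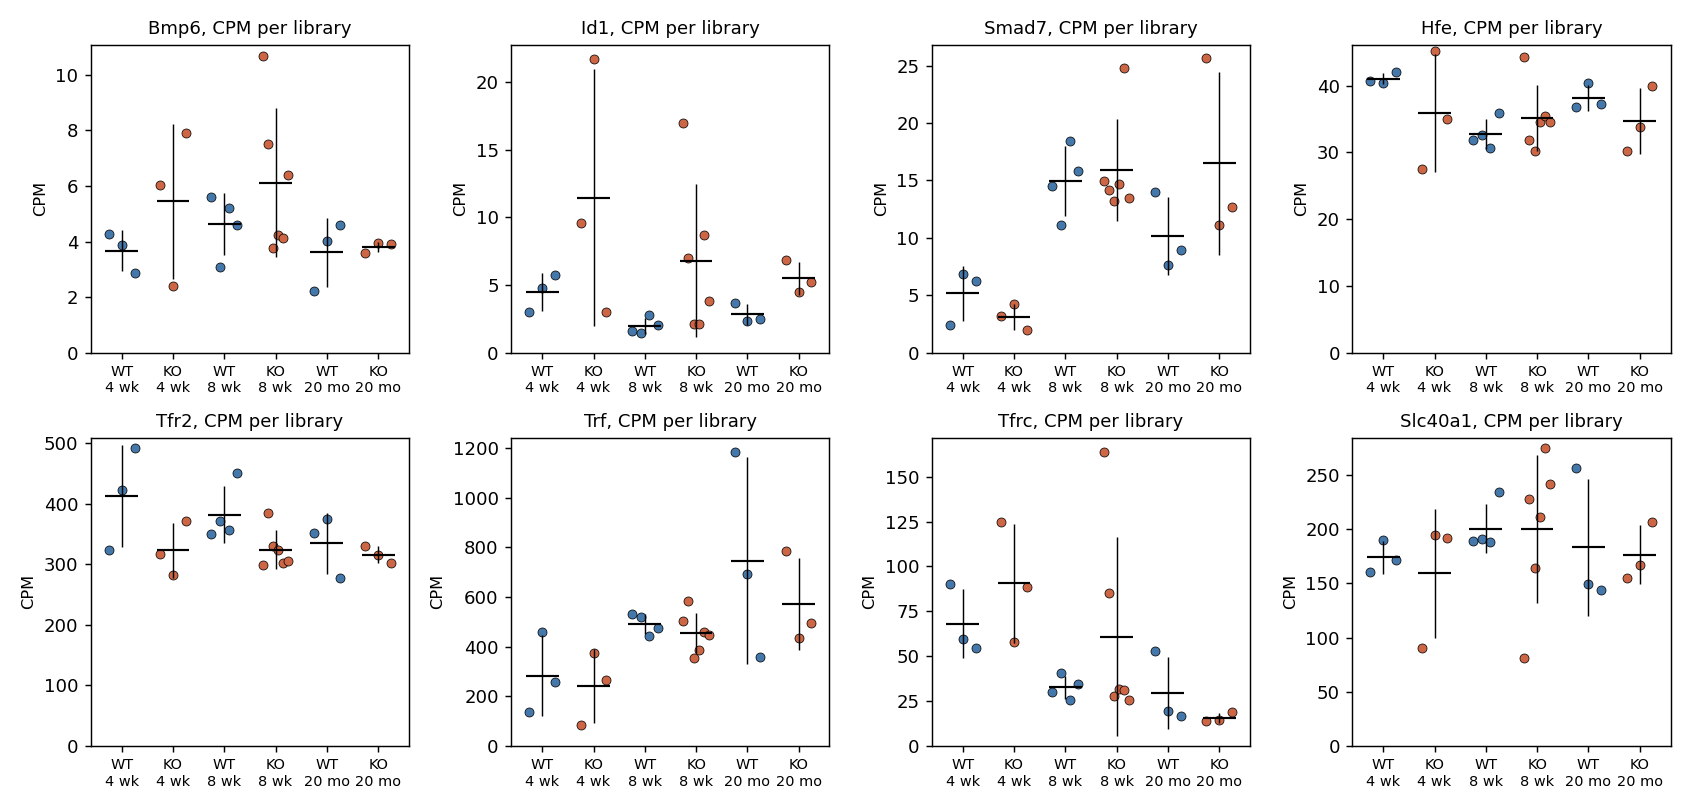
CPM per library of the 8 other genes by genotype and age; points are libraries (WT blue, KO orange), horizontal lines group means and vertical lines 1 SD. In every panel except Id1 at 20 months the genotypes overlap at each age, and single livers stand out for Tfrc, Slc40a1 and Smad7.

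In all, 1 of 9 members passed at 4 weeks, 0 of 9 at 8 weeks and 0 of 9 at 20 months in edgeR's test, against backgrounds of 10.8%, 0.0275% (0.00689% higher and 0.0207% lower) and 0% of genes. Without overlap between genotypes were 1, 0 and 1 of the 9, against 35.3%, 2.53% (1.32% higher and 1.21% lower) and 10.2% of genes. DESeq2 called 1, 0 and 0 of them, where it called 14.1%, 0.737% and 0.272% of all genes. At an unadjusted edgeR p under 0.05 there were 2, 1 and 1, the added gene being Id1 each time, where 29.1%, 10.4% and 5.53% of all genes lay under it. The median log2 fold change of the 9 was -0.09, 0.12 and -0.06, beside 0.01, 0.02 and -0.0033 over all genes tested.

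Leaving out the libraries that stood apart turned the sign of several small values and, apart from Id1 at 8 weeks, made no further member pass. Without KO replicate 1 at 4 weeks the log2 fold change became 0.24 for Trf, 0.20 for Slc40a1 and 0.02 for Hfe, each below 0 with it, and 0.15 for Tfrc, -0.29 for Tfr2, 0.53 for Bmp6, 1.52 for Id1 and -0.69 for Smad7 (edgeR adjusted p from 0.131 to 0.955). Without KO replicates 3 and 4 at 8 weeks it was 1.26 for Tfrc (SE 0.53, edgeR adjusted p = 0.140) and 0.66 for Bmp6 (SE 0.29, edgeR adjusted p = 0.156). In that fit Trf turned to 0.06, and Hfe, Smad7, Slc40a1 and Tfr2 had 0.20, 0.21, 0.09 and -0.20 (edgeR adjusted p from 0.249 to 0.871). Without WT replicates 1 and 2 at 20 months Slc40a1 turned to 0.28 and Bmp6 to -0.28, and Hfe, Smad7 and Id1 had -0.11, 0.88 and 1.16 (edgeR adjusted p = 0.9996 for each).

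**Figure D4:**
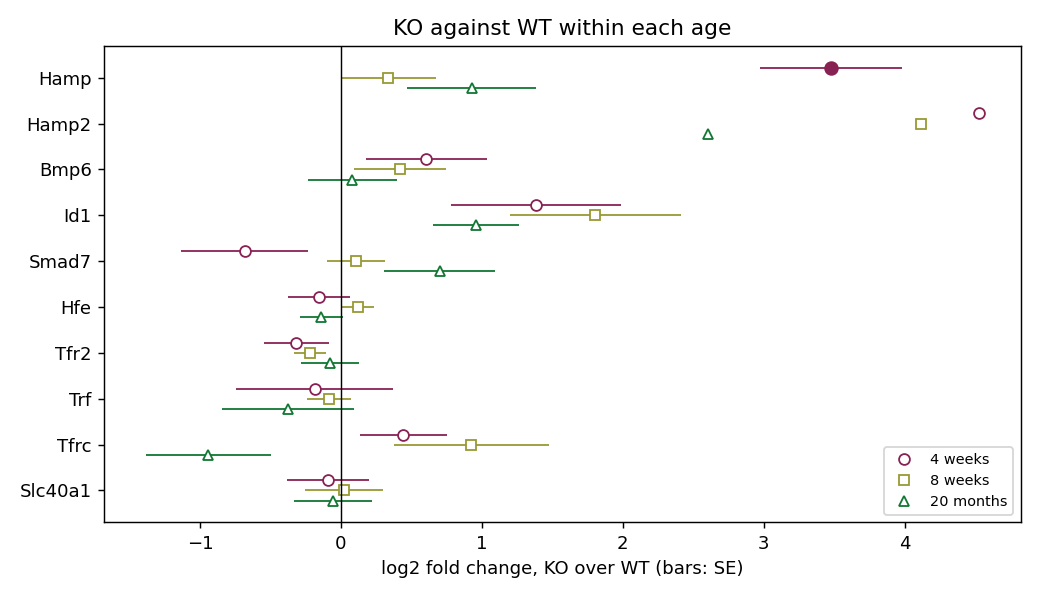
Log2 fold change of KO over WT for the 10 genes at 4 weeks (circles), 8 weeks (squares) and 20 months (triangles), with bars of 1 SE; filled symbols passed an edgeR adjusted p of 0.05 and Hamp2 is shown as a value with no error or test. Only Hamp at 4 weeks is filled, at 3.48.

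The wider pathway was read from 8 gene lists, of which 78 of 89 genes were tested at 4 weeks and 12 passed, beside the 10.8% of all genes that passed (5.17% as higher and 5.6% as lower). Among 15 tested genes of the BMP and SMAD pathway, 1 rose and 1 fell. Hfe2 (now Hjv), hemojuvelin, the BMP co-receptor needed for hepcidin expression, had 50.5, 39.2 and 39.6 CPM in WT and 97.3, 78.8 and 72.6 CPM in KO, and rose with a log2 fold change of 0.98 (SE 0.21, edgeR adjusted p = 0.0227). Tmprss6, matriptase-2, the protease that cleaves hemojuvelin and holds hepcidin down, had 232, 331 and 380 CPM in WT and 125, 141 and 170 CPM in KO, and fell (log2 fold change -1.08, SE 0.24, edgeR adjusted p = 0.0281). Neither pair of groups overlapped. The Hfe2 call was lost without WT replicate 2 or 3 (adjusted p = 0.119 and 0.114), and the Tmprss6 call without WT replicate 2 or 3 or KO replicate 2 or 3 (adjusted p from 0.0604 to 0.132). Of 6 tested BMP targets other than Id1 and Smad7, 0 passed in edgeR, 1 had an unadjusted p under 0.05 and DESeq2 called 1. This was Id2, a relative of Id1, with a log2 fold change of 1.23 (SE 0.40, edgeR adjusted p = 0.0818) and groups that did not overlap.

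**Figure D5:**
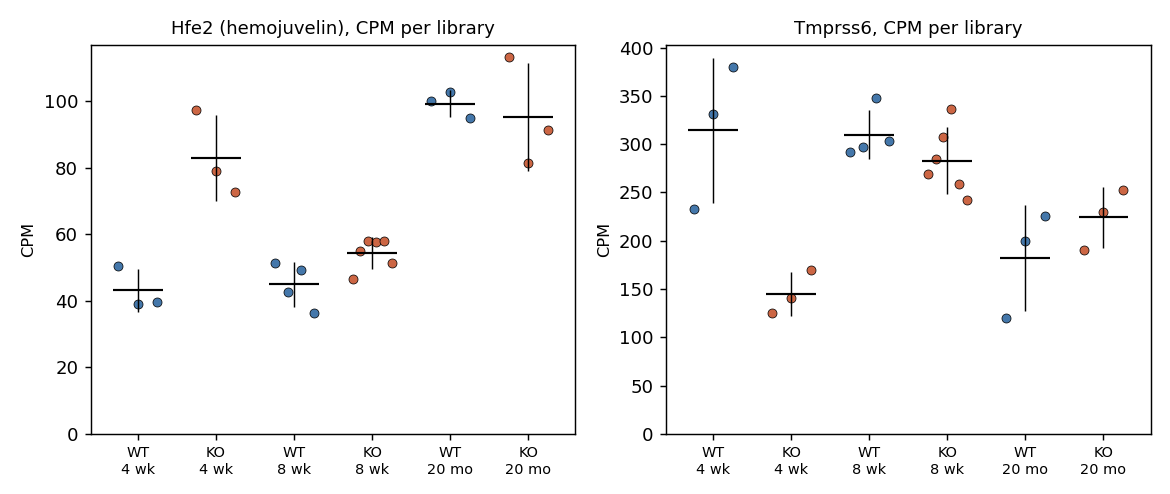
CPM per library of Hfe2 (hemojuvelin, left) and Tmprss6 (right) by genotype and age; points are libraries (WT blue, KO orange), horizontal lines group means and vertical lines 1 SD. At 4 weeks the 3 KO livers lie above the 3 WT livers for Hfe2 and below them for Tmprss6, and at 8 weeks and 20 months the genotypes overlap.

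In iron transport and reduction 3 of 10 tested genes rose at 4 weeks and none fell. Slc39a14, a hepatocyte importer of iron not bound to transferrin, was higher by 1.06 on the log2 scale (SE 0.28, edgeR adjusted p = 0.0486), Steap2, a metalloreductase, by 1.03 (SE 0.18, edgeR adjusted p = 0.0117), and Slc25a28, mitoferrin-2, by 1.10 (SE 0.25, edgeR adjusted p = 0.0316). Of 8 tested genes of ferritin and iron sensing 0 passed in edgeR and 0 in DESeq2, with 2 at an unadjusted p under 0.05. In heme uptake and breakdown 1 of 12 rose and 2 fell. Hmox1, heme oxygenase 1, which frees iron from heme, had 19.4, 23.7 and 20.2 CPM in WT and 86.4, 158 and 69.2 CPM in KO, a log2 fold change of 2.35 (SE 0.32, edgeR adjusted p = 0.00560), a call kept in every fit with 1 library left out. Blvrb, a biliverdin reductase, fell by 1.32 on the log2 scale (edgeR adjusted p = 0.0227) and Slc46a1, a folate and heme transporter, by 1.59 (edgeR adjusted p = 0.0221). In heme synthesis 1 of 8 tested genes, Urod, fell by 1.22 (edgeR adjusted p = 0.0179).

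In the interleukin 6 and acute-phase list 1 of 13 tested genes rose and 1 fell at 4 weeks. Stat3, the transcription factor of the interleukin 6 branch, was higher by 1.13 on the log2 scale (SE 0.23, edgeR adjusted p = 0.0225), and Crp, an acute-phase protein gene, fell by 1.22 (edgeR adjusted p = 0.0197). Saa1, the gene that set apart WT livers of 20 months, had 98.1, 226 and 399 CPM in WT and 107, 7.04 and 16.2 CPM in KO at 4 weeks. Of 6 iron-sulfur genes Lyrm4 rose by 0.72 (edgeR adjusted p = 0.0486). Apart from Hmox1, each of these calls was lost when 1 library was left out, in 2 to 4 of 6 such fits. The medians of the lists, from -0.56 for heme synthesis to 0.31 for the BMP and SMAD pathway and for ferritin and iron sensing, stood beside 0.01 over all genes. DESeq2 called 15 of the 78, beside 14.1% of all genes, and 27 had an unadjusted p under 0.05 in edgeR, beside 29.1% of all genes.

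Marker genes of other cells were counted at 4 weeks in the same way, where 5.17% of all genes passed as higher and 5.6% as lower. Of 12 tested endothelial markers 0 rose and 3 fell, of 12 macrophage markers 1 rose and 3 fell, and of 6 erythroid markers 1 rose and 4 fell. Stellate cell markers had 1 of 9 higher, and summed to 339 to 426 CPM in WT and 428 to 580 CPM in KO. Hepatocyte markers had 1 of 9 higher and neutrophil markers had 0 of 2 tested in edgeR and in DESeq2, with 0 at an unadjusted p under 0.05. Of the sex-biased lists 9 of 10 tested male-biased genes fell, and of 7 tested female-biased genes 5 rose and 1 fell. Their part in the pathway genes was not tested.

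At 8 weeks and 20 months no gene of the 8 lists passed in edgeR, of 82 and 83 tested, with 13 and 12 at an unadjusted p under 0.05, beside 10.4% and 5.53% of all genes. DESeq2, which called 0.737% and 0.272% of all genes, called 4 at 8 weeks, Gdf15, Hmox1, Id4 and Orm2, and 6 at 20 months, the acute-phase or neutrophil genes Fgl1, Lcn2, Ltf, Orm2, Saa1 and Saa2. Those of 20 months were all lower in KO, with edgeR log2 fold changes from -7.36 to -2.27, and all but Orm2 had overlapping groups. WT replicates 1 and 2, the livers with high Saa1, are part of that comparison. Hmox1 at 8 weeks followed the pattern of Id1, with 16.5 to 28.1 CPM in WT, 139, 170, 180 and 102 CPM in KO replicates 1, 2, 5 and 6, and 16.0 and 15.3 CPM in KO replicates 3 and 4. Its log2 fold change was 2.30 (edgeR adjusted p = 0.474) over all KO livers and 2.81 (edgeR adjusted p = 0.000207) without replicates 3 and 4, a choice made after seeing the data, in the fit where 13.9% of all genes passed. Neutrophil markers at 20 months summed to 6.44 to 2987 CPM in WT and 6.26 to 13.8 CPM in KO. Hfe2 had 36.3 to 51.4 CPM in WT and 46.5 to 58.0 CPM in KO at 8 weeks (log2 fold change 0.29, edgeR adjusted p = 0.474), and Tmprss6 291.5 to 347 CPM and 242 to 337 CPM (log2 fold change -0.12, edgeR adjusted p = 0.628). The KO effect on Tmprss6 differed among ages (joint edgeR test, adjusted p = 0.0467), a call lost in 18 of 22 fits with 1 library left out and without the 4 libraries that stood apart (adjusted p = 0.115), and that on Hfe2 did not pass in edgeR (adjusted p = 0.0510) but did in DESeq2 (adjusted p = 0.00159) and in 5 of 22 edgeR fits with 1 library left out.

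Between ages, WT livers alone were compared. In these livers Hamp2 stood at 0.39% to 2.47% of Hamp in CPM. Part of its counts may be reads of Hamp in each age comparison, which was not tested. From 4 to 8 weeks 5 of 10 members passed, 2 higher and 3 lower, against 53.2% of all genes tested (27.5% higher and 25.7% lower). Smad7 rose with a log2 fold change of 1.503 (SE 0.28, edgeR adjusted p = 0.00146), and Hamp2 rose by 0.99 (SE 0.34, edgeR adjusted p = 0.0306). Tfrc fell by 1.09 (SE 0.20, edgeR adjusted p = 0.00124), Id1 by 1.22 (SE 0.30, edgeR adjusted p = 0.00622) and Hfe by 0.35 (SE 0.09, edgeR adjusted p = 0.00801), so the BMP targets Id1 and Smad7 went in opposite directions. The groups of these 5 did not overlap, as for 56.2% of all genes (29.7% higher and 26.5% lower). Hamp had a value of 0.86 (SE 0.34, edgeR adjusted p = 0.0588) and Trf 0.78 (SE 0.31, edgeR adjusted p = 0.0590), and Slc40a1, Tfr2 and Bmp6 lay between -0.13 and 0.33. The Hamp2 call was lost without WT replicate 2 or 3 at 4 weeks or replicate 3 or 4 at 8 weeks (adjusted p from 0.0627 to 0.114). Without WT replicate 2 of 4 weeks Hamp and Trf passed as higher, at 1.38 and 1.31 (edgeR adjusted p = 0.00663 and 0.00241). They also passed in DESeq2 (adjusted p = 0.0248 and 0.0261) and in edgeR with no filter on low counts (adjusted p = 0.0141 and 0.0155), where Hfe did not (adjusted p = 0.0722). With the replicate block Trf passed (edgeR adjusted p = 0.0295) and Hamp2 did not (edgeR adjusted p = 0.0947). In the fit of all 22 libraries Smad7 alone passed, with Hamp2, Tfrc, Hfe and Id1 at edgeR adjusted p of 0.645, 0.128, 0.0796 and 0.157.

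From 8 weeks to 20 months both hepcidins rose in WT and no other member passed, against 54.5% of all genes (27.7% higher and 26.8% lower). For Hamp the log2 fold change was 1.04 (SE 0.33, edgeR adjusted p = 0.0269), with every liver of 20 months above every liver of 8 weeks, as for Hfe (0.17, edgeR adjusted p = 0.144) and as for 27% of all genes, beside 29.2% lower and 56.2% in either direction. For Hamp2 it was 1.44 (SE 0.47, edgeR adjusted p = 0.0332), with overlapping groups. The Hamp call was lost without WT replicate 1 or 2 of 8 weeks (adjusted p = 0.0738 and 0.0786), and the Hamp2 call without any 1 of the 4 livers of 8 weeks or replicate 3 of 20 months (adjusted p from 0.0553 to 0.121), the last with a value of 0.64. Hamp did not pass with the replicate block (edgeR adjusted p = 0.0673), and neither hepcidin in the fit of all 22 libraries (edgeR adjusted p = 0.0517 for Hamp and 0.252 for Hamp2). Without WT replicates 1 and 2 of 20 months, the livers with high Saa1, the value was 0.53 for Hamp (edgeR adjusted p = 0.0907) and 2.38 for Hamp2 (edgeR adjusted p = 0.00059). In that fit, which leaves 1 liver of 20 months, assumed to vary like the livers of 8 weeks, and in which 55% of all genes passed, Tfrc, Slc40a1, Tfr2 and Trf passed as lower, at -0.97, -0.47, -0.45 and -0.44 (edgeR adjusted p = 0.0164, 0.0295, 0.0405 and 0.0401), whereas over all 3 livers Trf had a value of 0.56 (edgeR adjusted p = 0.209). Without replicate 1 of 20 months alone Tfrc, Slc40a1 and Smad7 passed as lower, at -0.92, -0.51 and -0.92 (edgeR adjusted p = 0.00385, 0.00927 and 0.00724), and without replicate 3 alone Trf passed as higher, at 0.86 (edgeR adjusted p = 0.0143).

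From 4 weeks to 20 months 1 of 10 members passed, against 14.6% of all genes (6.35% higher and 8.25% lower). Hamp2 rose with a log2 fold change of 2.40 (SE 0.60, edgeR adjusted p = 0.0386), a call lost without any 1 of the livers of 4 weeks (adjusted p from 0.105 to 0.148), in the fit of all 22 libraries (edgeR adjusted p = 0.235) and with the replicate block (edgeR adjusted p = 0.0610). Hamp had a value of 1.88 (SE 0.53, edgeR adjusted p = 0.0516) and did not overlap between these ages, nor did Hamp2, Smad7 (higher) and Tfrc (lower), as for 37.9% of all genes (17.7% higher and 20.2% lower). Trf had 1.32 (SE 0.55, edgeR adjusted p = 0.140) and Tfrc -1.29 (SE 0.46, edgeR adjusted p = 0.0994). Hamp passed in DESeq2 and in the 4 edgeR fits with other settings over the same livers or all 22 (adjusted p from 0.00125 to 0.0486). Tfrc passed without replicate 1 of 20 months (-1.99, edgeR adjusted p = 0.00279), and Hamp and Trf without replicate 3 (2.11 and 1.66, edgeR adjusted p = 0.0248 and 0.0402). Without replicates 1 and 2 of 20 months together Hamp2 had 3.32 (edgeR adjusted p = 0.00112) and Tfrc -2.10 (edgeR adjusted p = 0.00763), where 12.9% of all genes passed and 1 liver of 20 months remained, assumed to vary like those of 4 weeks.

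The nearest patterns of the remaining members, by the same correlation over 22 libraries, were Spred1 (r = 0.81), Spred2 (0.80), both inhibitors of MAP kinase signalling, and Gm37900 (0.79) for Id1. For Smad7 they were Gm13461 (0.84), Trim8 (0.81) and Atoh8 (0.81), the last a BMP target of the fixed list. For Tfrc they were Rnf144a (0.92), Mapre1 (0.90) and Cd14 (0.87), for Tfr2 the hepatocyte secretory genes Vtn (0.83), Ambp (0.79) and Serpina11 (0.77), and for Hfe Ilvbl (0.84) and Slc25a22 (0.83). For Trf they were Nckap5l, Pdk3 and Tcaf2 (each 0.82), for Slc40a1 Zfp719 (0.83), Zfp65 (0.82) and Abcg3 (0.82), and for Bmp6 Gm17083 (0.85), Parp16 (0.79) and Gm13369 (0.76).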

How the data were processed

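The authors deposited, for each liver, a table of unnormalised read counts by Ensembl gene identifier. Per the submitters' processing notes, HISAT2 2.0.4, HTSeq 0.6.1p1 and GRCm38 were used. The annotation release, strand setting and treatment of reads that fit several genes are not given in the sources used here. Per the file names, paired-end reads were used at 4 weeks and single-end reads at the later ages. Symbols for 47310 of 47729 identifiers came from GENCODE M21, and the 5 summary lines per table stayed out. Reads outside genes were 6.13% to 17.8% of those recorded in a table.

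The 10 genes and all gene lists were chosen with earlier results of these data known. Counts were fitted in edgeR 4.0.16 (R 4.3.3; filterByExpr, TMM, 2-sided quasi-likelihood F-test), with Benjamini-Hochberg adjustment over all genes tested and a threshold of 0.05. Each comparison used only its own groups, and the test among ages all 22 libraries. CPM used TMM factors of all 22 libraries, and log2 CPM a prior count of 2. Named besides the members were, per list and genotype comparison, up to 6 genes with the smallest adjusted p among those passing, the 5 genes nearest to Hamp and Hamp2 and the 3 nearest to each other member. One of these nearest genes is not reported here. List genes are not named in the age comparisons, and other names were chosen after their values were seen. Correlations used 100000 permutations within groups, or exact enumeration within an age (Python 3.11.15, scipy 1.17.1). Promoter windows were aligned with Biopython 1.88.

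Alternatives were DESeq2 1.42.0, upper-quartile scaling, no filter beyond 1 count, all 22 libraries in 1 fit, a replicate block, a prior count of 0.5 and each library left out. Counts of libraries of a group differed by a chi-square of at least 8.34 for each degree of freedom, so none was counted as a repeat. The fits were tested on simulated data. Of 176 listed symbols 1 (Ahsp) was not matched.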

Additional observations from a re-analysis of the deposited data

Results flagged for a closer look

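Among 20 groups of 4 to 10 libraries checked for a liver far from the rest, 3 were picked out, where chance gives about 1 in 20. Tfr2 had 385.3 CPM in KO replicate 2 at 8 weeks, above the other 5 KO livers at 299 to 330 CPM. Slc40a1 had 234.3 CPM in WT replicate 4 at 8 weeks, above the other 3 WT livers at 188 to 191 CPM. Smad7 had 24.8 CPM in KO replicate 5 at 8 weeks, above the other 5 KO livers at 13.2 to 14.9 CPM, and that liver also had the highest Hamp (799 CPM) and Hamp2 (87.6 CPM) of its group. None of these 3 values decided a call.

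A KO effect that differed among the ages was found for Hamp (joint edgeR test, adjusted p = 0.0321) and for Tmprss6 (adjusted p = 0.0467). Both calls were lost in some fits with 1 library left out, Hamp in 7 and Tmprss6 in 18 of 22.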

How the results depend on the processing

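The Hamp call at 4 weeks kept its direction and its side of the threshold under every alternative run. With no filter on low counts Id1 joined it (2 members, edgeR adjusted p of Id1 0.00507), with 2048 genes called in place of 1200. At 8 weeks the count of members was 0 except without KO replicates 3 and 4, where it was 1 (Id1), with 1990 genes called in place of 4. From 4 to 8 weeks in WT the count fell from 5 to 1 in the fit of all 22 libraries. From 8 weeks to 20 months it went from 2 to 0 in that fit, to 1 with the replicate block, to 5 without WT replicates 1 and 2 of 20 months, and from 0 to 5 with 1 library left out. From 4 weeks to 20 months it went from 1 to 4 in DESeq2 and with no filter, to 2 with upper-quartile scaling, all 22 libraries, the replicate block, and without WT replicates 1 and 2, and from 0 to 3 with 1 library left out. Among ages the count of 1 became 0 in 7 of 22 such fits. The correlations of Hamp with Id1 (0.61) and Smad7 (0.65) passed only without the 2 libraries farthest from the median, of the alternatives run. Without the 5 libraries that stood apart, a choice made after seeing the data, r was 0.63 for Id1 with Smad7 and no longer passed, and -0.08 for Hamp with Saa1. Trf from 8 weeks to 20 months, which did not pass at 0.56, passed at -0.44 without WT replicates 1 and 2, with 1 liver of 20 months left. The cause of these changes was not tested, beyond the fewer libraries that some fits hold.

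Over all genes, DESeq2 gave 107 calls at 8 weeks, 38 for 20 months and 1200 among ages, in place of 4, 0 and 258, and the fit of all 22 libraries called 3212 from 4 weeks to 20 months in place of 1876 (1775 higher and 1437 lower, against 816 and 1060). At 4 weeks 689, 234 and 184 genes were called without WT replicates 1, 2 and 3 in turn, and 2012 and 429 without KO replicates 1 and 3. Among ages, 26 to 1081 were called with 1 library left out, over 1.5 times from the main count in 15 of 22 fits. Upper-quartile scaling moved the median log2 fold change of all genes to 0.14 from 8 weeks to 20 months and to 0.11 from 4 weeks to 20 months, and the fit of all 22 libraries to 0.12 in both, from 0.07 and 0.04. At 4 and 8 weeks replicate numbers did not pair the livers of the 2 genotypes. The correlation of same-numbered livers spanned -0.041 to 0.026 and -0.284 to 0.075 there, and not every liver correlated best with its own number. In the oldest livers it was 0.40, 0.068 and 0.393 for replicates 1, 2 and 3, and replicates 1 and 3 correlated best with their own number. With the replicate block at 20 months 1225 genes had an unadjusted edgeR p under 0.05, in place of 772. A factor shared by same-numbered livers was not tested. With the replicate block the genotype comparisons called 537, 0 and 0 genes from the youngest to the oldest, and the members called between genotypes were 1, 0 and 0 as without it.

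With 1 library left out, 1 to 5 genes were called at 8 weeks and 0 to 71 at 20 months, the 71 without WT replicate 3, and 377 to 2704 from 4 weeks to 20 months in WT. Of the list genes called at 4 weeks, edgeR adjusted p in the fit of all 22 libraries was 0.0504 for Hmox1, 0.122 for Steap2 and 0.249 for Slc39a14, with upper-quartile scaling 0.0517 for Slc39a14 and 0.0530 for Lyrm4, with no filter 0.0504 for Lyrm4, and with the replicate block 0.104, 0.0859 and 0.0979 for Slc39a14, Slc25a28 and Lyrm4. Depth limits the 4-week values most, where Hamp2, Bmp6, Id1 and Smad7 rest on 6 to 39 counts in WT.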

Other observations

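KO replicate 1 of 4 weeks and KO replicate 1 of 8 weeks, both picked out after their values were seen, held the extremes of several iron genes at once. At 8 weeks this liver had the highest Tfrc of its genotype (164 CPM), the highest Id1 (17.0 CPM), Bmp6 (10.7 CPM) and Hfe (44.3 CPM), and the lowest Slc40a1 (81.4 CPM, against 164 to 275 CPM in the other 5). Its Slc39a14, the importer of iron not bound to transferrin, was 2779 CPM against 262.5 to 693 CPM, its Slc25a28 35.6 CPM against 10.4 to 13.9 CPM, and its Stat3 399 CPM against 108 to 277 CPM. At 4 weeks KO replicate 1 likewise had the highest Tfrc (125 CPM), Slc39a14 (535 CPM) and Slc25a28 (36.0 CPM) of the 6 livers and the lowest Slc40a1 (90.7 CPM) and Trf (82.5 CPM). Hepcidin did not share this pattern: Hamp was lowest of the KO livers in that liver at 4 weeks (1497 CPM) and second highest at 8 weeks (539 CPM). Other members also differed between these livers. Hfe was lowest of the 6 livers in that of 4 weeks (27.6 CPM), where Id1 (9.58 CPM) and Bmp6 (6.05 CPM) lay between the other KO livers. Trf was second highest of the KO livers in that of 8 weeks (503 CPM). Albumin (Alb) was 27070 CPM in the liver of 4 weeks, against 100400 to 142100 CPM in the other 5, and 146600 CPM in the liver of 8 weeks, the highest of its age.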
